A study of Mus musculus with 16 samples.

Results

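The 10 genes described here are 6 fibroblast growth factor (FGF) genes, Fgf1, Fgf2, Fgf7, Fgf10, Fgf13 and Fgf21, 3 FGF receptor genes, Fgfr1, Fgfr2 and Fgfr4, and Klb, which encodes beta-klotho. They were picked by gene symbol out of 45777 genes in the deposited table, and all 10 passed the filter on low counts that left 19189 genes for testing. The RNA came from epididymal fat, a visceral white adipose depot, of male mice. Mice of both genotypes ate a high-fat diet with 60% of its energy as fat, starting at 4 weeks of age. The OE groups were A-LTA4HOE mice, which overexpress LTA4H in adipocytes, and the Ctrl groups were their control mice. LTA4H is the hydrolase of the last step in the synthesis of leukotriene B4, a lipid signal that attracts immune cells. The groups were OE mice at 20 weeks of age (16 weeks of diet), Ctrl mice at 20 weeks, OE mice at 8 weeks of age (4 weeks of diet) and Ctrl mice at 8 weeks, with 4 libraries each. The labels name neither the promoter that drives the transgene nor the strain, and there was no group on another diet, so age and time on the diet cannot be told apart.

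FGFs bind receptor tyrosine kinases at the cell surface, and the bound receptors signal through adaptor proteins to the Ras and MAP kinase cascade. Most FGFs act close to where they are made and need heparan sulfate as a cofactor, whereas the endocrine FGFs need a klotho protein in its place. In fat, FGF21 acts on adipocytes through FGFR1 together with beta-klotho, and FGF10 is known in mice for its part in the growth of fat cell precursors through FGFR2.

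Lta4h was 239 to 286 CPM (counts relative to the TMM-scaled library size) in OE mice at 20 weeks, against 82.4 to 95.4 CPM in Ctrl mice of that age. At 8 weeks it was 251 to 427 CPM in OE mice and 79.4 to 104 CPM in Ctrl mice, so every library went with its genotype label. The libraries held 33626901 to 67576994 counts. No mature adipocyte marker out of 14 was at 0 in any library. In a principal component analysis, the first component put OE_20wk replicate 1 at 22.4, away from the other 20-week libraries at -96.6 to -66.7. OE_8wk replicate 1 and Ctrl_8wk replicate 1 lay at -19.5 and -29.9, away from the other 8-week libraries at 68.8 to 125. OE_8wk replicate 2 and Ctrl_8wk replicate 4 held transcripts of the epididymal epithelium, with 13 marker genes summing to 2423 and 3684 CPM and with 6 and 2 of the 13 at 0. Those markers summed to at most 166 CPM in the other 8-week libraries and at most 4.39 CPM in any 20-week library. Calls of the members between the ages that changed without these 5 libraries are given with and without them. The labels give each replicate a number and a library name and do not say what these stand for. Beyond that they say only that the replicates are separate samples, so the p-values measure the spread between these samples.

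Per transcript length, Fgfr1 had the highest level of the 10 genes in all 4 groups. Its deposited TPM (a level scaled by transcript length and library size) averaged 98.8 ± 7.93 in OE mice at 20 weeks, 88.4 ± 2.07 in Ctrl mice at 20 weeks, 110 ± 4.37 in OE mice at 8 weeks and 104 ± 2.28 in Ctrl mice at 8 weeks (SD, n = 4 each). Fgfr1 was above the next gene with no overlap between libraries in every group but Ctrl mice at 20 weeks. At 20 weeks Fgf13 and Fgf1 came next, at 62.3 ± 11.3 and 53.2 ± 2.04 TPM in OE mice and 52 ± 8.46 and 59.8 ± 20.7 TPM in Ctrl mice. At 8 weeks Fgf1 came next, at 51.8 ± 5.26 TPM in OE mice and 45.6 ± 7.18 TPM in Ctrl mice. Below these at 20 weeks was Klb with 17.2 ± 6.38 TPM in OE mice and 15.2 ± 3.95 TPM in Ctrl mice. At 8 weeks Klb came just after Fgf1, with 28.5 ± 3.82 TPM in OE mice and 32.9 ± 12 TPM in Ctrl mice.

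The gene below Klb in each group was Fgf10, whose TPM overlapped with those of Klb in all 4 groups. Fgf2 averaged 9.53 ± 1.12 TPM in OE mice and 8.83 ± 1.88 TPM in Ctrl mice at 20 weeks, and 21.3 ± 2.27 TPM in OE mice and 15.7 ± 4.12 TPM in Ctrl mice at 8 weeks. Fgfr2, Fgf7, Fgfr4 and Fgf21 had the lowest levels. Fgf21 averaged 2.01 ± 0.751 TPM in OE mice and 2.06 ± 0.842 TPM in Ctrl mice at 20 weeks, and 0.427 ± 0.437 TPM in OE mice and 1.21 ± 0.501 TPM in Ctrl mice at 8 weeks. In Ctrl mice at 8 weeks, Fgfr1 against Fgf1 was the one pair of neighbours in this order whose libraries did not overlap.

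**Figure D1:**
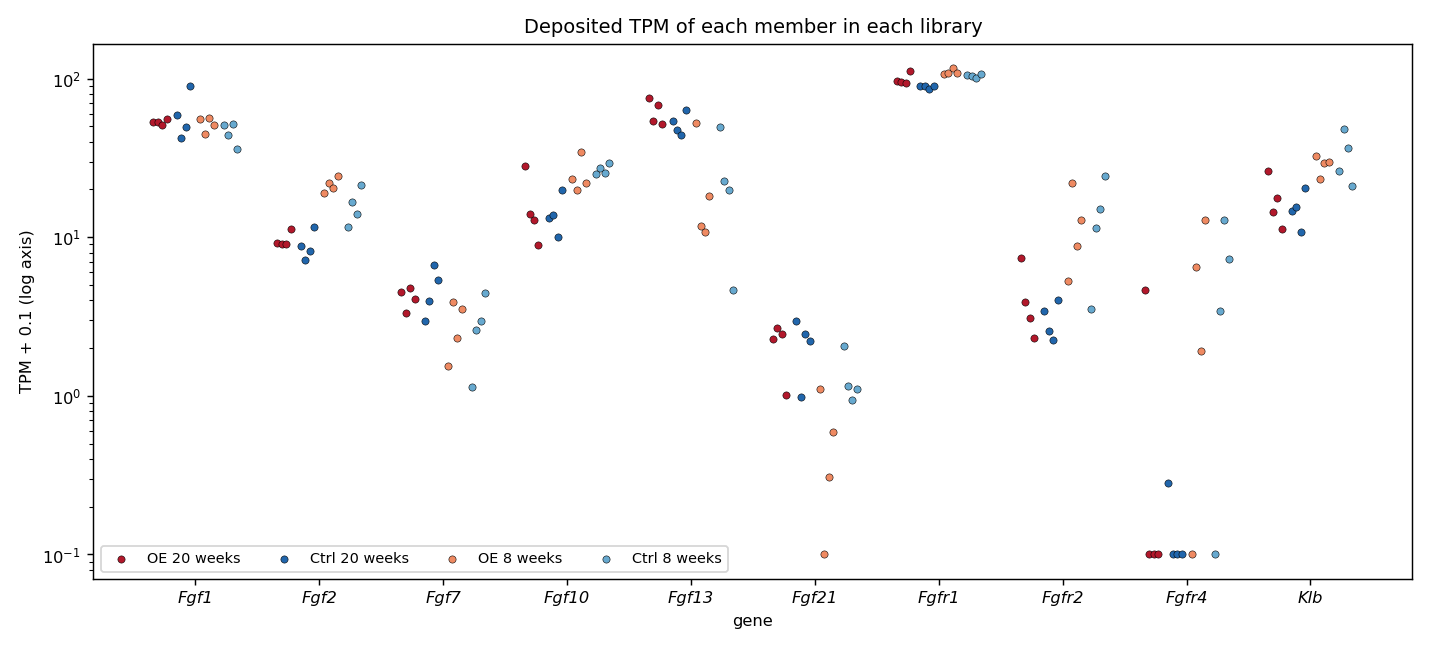
Deposited TPM of the 10 genes in each library on a log axis, after a small constant was added so that values of 0 can be drawn. Each point is 1 library, in the order OE at 20 weeks, Ctrl at 20 weeks, OE at 8 weeks and Ctrl at 8 weeks; Fgfr1 is highest in every group, and Fgfr4 runs from 0 upwards within groups.

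The first comparison asked how the 10 genes differed between 20 and 8 weeks. Fgf2, a ligand, fell in both genotypes. Fgfr2, a receptor, was called lower in both, although its call in OE mice was lost in 11 of 27 alternative settings. In Ctrl mice Fgf10, Fgfr1, Fgfr4 and Klb were also called lower. The call of Fgfr4 rests on few libraries, with 0 counts in 3 of the 4 Ctrl libraries at 20 weeks, and was lost in 12 alternative settings and turned in sign in 1. No member was called higher by edgeR in either genotype. In OE mice 2 of 10 genes were called lower, beside 9.91% of all genes tested, and in Ctrl mice 6 of 10, Fgfr4 included, beside 21.3%. Called higher were 0 of 10 genes, beside 13.1% of all genes in OE mice and 19.6% in Ctrl mice. At an unadjusted p under 0.05 there were 6 of 10 genes in each genotype, beside 36.8% of all genes in OE mice and 50.2% in Ctrl mice. The median log2 fold change of the 10 genes was -0.46 in OE mice, beside -0.03 for all genes tested, and -0.64 in Ctrl mice, beside -0.05. DESeq2 called 4 members lower and 1 higher in OE mice, beside 14.5% and 15.2% of all genes fitted. In Ctrl mice it called 5 lower and 0 higher, beside 24.8% and 21%. Limma voom called 5 members lower and 2 higher in each genotype, beside 19.2% lower and 20.8% higher in OE mice and 28% lower and 26.8% higher in Ctrl mice.

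The promoters of 5 genes are shown because they are those of the members called lower at 20 weeks in Ctrl mice, apart from Fgfr1, which has no entry. RefSeq promoter sequence on GRCm38.p6 (mm10), 250 bases before to 50 bases after the start site, was found for 8 of the 10 genes, with no entry for Fgf1 and Fgfr1. Capitals mark matches to the motifs searched, read 5′ to 3′ on the strand of the gene. The windows are chr3:37348403-37348702 (+) for Fgf2, chr13:118714449-118714748 (+) for Fgf10, chr7:130266759-130267058 (-) for Fgfr2, chr13:55152568-55152867 (+) for Fgfr4 and chr5:65348161-65348460 (+) for Klb.
Fgf2: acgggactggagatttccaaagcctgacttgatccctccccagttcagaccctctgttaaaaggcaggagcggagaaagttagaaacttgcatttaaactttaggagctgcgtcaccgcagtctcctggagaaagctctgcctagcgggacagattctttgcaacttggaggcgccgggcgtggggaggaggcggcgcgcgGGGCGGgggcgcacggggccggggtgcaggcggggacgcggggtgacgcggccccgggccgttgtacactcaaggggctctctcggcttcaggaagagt
Fgf10: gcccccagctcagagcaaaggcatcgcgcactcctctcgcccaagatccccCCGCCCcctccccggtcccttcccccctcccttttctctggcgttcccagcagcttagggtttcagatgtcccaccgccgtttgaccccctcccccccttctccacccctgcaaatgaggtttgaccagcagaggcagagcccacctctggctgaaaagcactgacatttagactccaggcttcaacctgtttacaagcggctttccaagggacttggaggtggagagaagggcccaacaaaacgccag
Fgfr2: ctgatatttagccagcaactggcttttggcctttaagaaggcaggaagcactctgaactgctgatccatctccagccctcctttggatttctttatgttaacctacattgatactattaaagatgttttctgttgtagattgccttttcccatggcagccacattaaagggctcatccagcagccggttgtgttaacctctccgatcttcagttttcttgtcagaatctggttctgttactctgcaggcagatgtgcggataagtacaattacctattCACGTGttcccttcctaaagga
Fgfr4: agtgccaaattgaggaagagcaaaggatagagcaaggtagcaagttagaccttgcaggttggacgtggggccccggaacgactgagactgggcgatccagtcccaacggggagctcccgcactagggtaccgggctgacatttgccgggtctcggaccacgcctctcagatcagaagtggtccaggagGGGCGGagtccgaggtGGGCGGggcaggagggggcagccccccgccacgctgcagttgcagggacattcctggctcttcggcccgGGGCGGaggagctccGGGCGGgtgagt
Klb: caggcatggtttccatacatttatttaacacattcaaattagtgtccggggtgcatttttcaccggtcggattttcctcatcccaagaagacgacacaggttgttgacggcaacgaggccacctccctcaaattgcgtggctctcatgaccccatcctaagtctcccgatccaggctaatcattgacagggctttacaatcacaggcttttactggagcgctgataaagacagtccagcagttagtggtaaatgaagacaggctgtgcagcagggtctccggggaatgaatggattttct

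Both strands were searched for the GC box with the letters GGGCGG, the TATA box with TATAAA, the PPAR half-site with AGGTCA and the E-box with CACGTG, and for the cAMP response element with TGACGTCA and the C/EBP site with TTGCGCAA. Fgf2 and Fgf10 each held 1 GC box, the one in Fgf10 on the opposite strand, Fgfr4 held 4 GC boxes, Fgfr2 held 1 E-box, and Klb held no match to these letters. No motif was shared by all 5 windows. The GC box is in 35.7% of the 32851 promoters of this length, the E-box in 7.15%, the TATA box in 13.6%, the PPAR half-site in 16.3%, the cAMP response element in 1.79% and the C/EBP site in 0.183%. GC content was 62.7% for Fgf2, 60.7% for Fgf10, 43.7% for Fgfr2, 65.3% for Fgfr4 and 48.3% for Klb. A match is a run of letters and does not show that a factor binds there.

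Fgf2 (ID 14173, chromosome 3, 37348477 to 37410106), basic FGF, is a ligand of several FGF receptors. Its values were 25.9, 25.8, 25.3 and 30.6 CPM in OE mice at 20 weeks, against 58.9, 57.3, 63.4 and 69.1 CPM in OE mice at 8 weeks. All 4 libraries at 20 weeks lay below all 4 at 8 weeks. Ctrl mice had 24.9, 19.7, 21.5 and 30.9 CPM at 20 weeks, against 35.3, 51.6, 42.2 and 55.7 CPM at 8 weeks, again with no overlap. Fgf2 fell in OE mice, with a log2 fold change of -1.21 ± 0.15 (SE), 2.31-fold lower with an adjusted p of 3.63e-04 in edgeR's quasi-likelihood test. It was -0.93 ± 0.15 in Ctrl mice, 1.91-fold lower with an adjusted p of 4.20e-04. The exact two-sided permutation p was 0.0286 in each genotype, the smallest that 4 against 4 libraries can give. Ranges lay below without overlap for 9.5% of all genes tested in OE mice and 14.8% in Ctrl mice. The call held in all 27 alternative settings in both genotypes. Fgf2 shares 640 of its 6782 exon bases with Nudt6, which runs on the opposite strand, and the counting strand was not stated. It shares 255 exon bases with Gm43439 on the same strand. Nudt6 averaged 4.25 ± 0.32 CPM in OE mice and 3.78 ± 0.803 CPM in Ctrl mice at 20 weeks, and 4.65 ± 0.832 CPM in OE mice and 4.65 ± 0.302 CPM in Ctrl mice at 8 weeks.

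Fgf10 (ID 14165, chromosome 13, 118714699 to 118792573) encodes a ligand of the epithelial form of FGFR2. It was 28.5, 29, 20.5 and 40.9 CPM in Ctrl mice at 20 weeks, against 58.7, 64.2, 57.5 and 58.8 CPM in Ctrl mice at 8 weeks. All 4 libraries at 20 weeks were lower. Fgf10 fell there by a log2 fold change of -1.01 ± 0.32, 2.01-fold lower (adjusted p = 0.0214), and the exact permutation p was 0.0286. In OE mice it was 60.1, 30, 27.3 and 18.6 CPM at 20 weeks, against 55.2, 38.7, 82.8 and 48 CPM at 8 weeks. OE_20wk replicate 1 alone of the 20-week libraries lay within the 8-week range, and the log2 fold change of -0.72 ± 0.31 did not pass (adjusted p = 0.109). Without that library it was -1.13 (adjusted p = 0.0053), and without all 5 libraries that stand apart it was -1.36 (adjusted p = 0.00692). Limma voom called Fgf10 lower in OE mice (-0.99, adjusted p = 0.00711), and DESeq2 did not (-0.73, adjusted p = 0.0614). Fgf10 shares 123 of its 4601 exon bases with Gm16263 on the opposite strand. In Ctrl mice the call was lost without Ctrl_20wk replicate 2 or 3, with adjusted p-values of up to 0.0684, and with 2 surrogate variables in the fit (-0.26, adjusted p = 0.707).

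Fgf1, acidic FGF, binds all FGF receptors and is known in mice as a gene that PPARγ controls in fat. It was 106, 105, 99.1 and 108 CPM in OE mice at 20 weeks, against 121, 81.3, 124 and 103 CPM in OE mice at 8 weeks. Ctrl mice had 116, 81.3, 93.9 and 169 CPM at 20 weeks, against 112, 98.1, 109 and 67.5 CPM at 8 weeks. The ranges overlapped in both genotypes, with log2 fold changes of -0.04 ± 0.21 in OE mice (adjusted p = 0.912) and 0.25 ± 0.21 in Ctrl mice (adjusted p = 0.347). Fgf7, keratinocyte growth factor, was 5.55, 4.08, 5.81 and 4.89 CPM in OE mice at 20 weeks and 2.03, 4.39, 3.13 and 4.39 CPM at 8 weeks. In Ctrl mice Fgf7 was 3.62, 4.82, 7.89 and 6.4 CPM at 20 weeks and 1.43, 3.43, 3.81 and 5.09 CPM at 8 weeks. Fgf7 overlapped between the ages too, with log2 fold changes of 0.54 ± 0.35 in OE mice (adjusted p = 0.274) and 0.72 ± 0.35 in Ctrl mice (adjusted p = 0.111). In Ctrl mice limma voom called Fgf7 higher (0.73, adjusted p = 0.0417), and DESeq2 did not (0.71, adjusted p = 0.097). EdgeR called it there without Ctrl_8wk replicate 4 (adjusted p = 0.0487).

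Fgf13 (ID 14168, chromosome X, 59062139 to 59585572) encodes an FGF homologous factor, which is not secreted and binds voltage-gated sodium channels. It was 89.1, 63.1, 77.1 and 58.9 CPM in OE mice at 20 weeks, against 69.8, 12.5, 14.1 and 21.8 CPM in OE mice at 8 weeks. Ctrl mice had 63.9, 55.2, 48.5 and 71.2 CPM at 20 weeks, against 65.3, 29.8, 25.1 and 5.16 CPM at 8 weeks. The libraries numbered 1 at 8 weeks reached the 20-week range in both genotypes, and the other 6 libraries at 8 weeks lay below it. The log2 fold change was 1.28 ± 0.61 in OE mice (adjusted p = 0.141) and 0.93 ± 0.60 in Ctrl mice (adjusted p = 0.229). Without the libraries numbered 1 at 8 weeks it was 2.16 in OE mice (adjusted p = 0.00622) and 1.58 in Ctrl mice (adjusted p = 0.0133). Without all 5 libraries that stand apart it was 1.88 in OE mice (adjusted p = 4.11e-04) and 1.13 in Ctrl mice (adjusted p = 0.0027). Limma voom called Fgf13 higher in OE mice (1.71, adjusted p = 0.00289) and in Ctrl mice (1.07, adjusted p = 0.0198). DESeq2 did not call it in OE mice (adjusted p = 0.0726) or in Ctrl mice (adjusted p = 0.171).

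Fgf21 (ID 56636, chromosome 7, 45613890 to 45615490), the hormone ligand of the FGFR1 and beta-klotho complex, was close to the limit of detection. It had 40, 47, 40 and 18 counts in OE mice at 20 weeks, against 21, 0, 4 and 11 counts in OE mice at 8 weeks. Ctrl mice had 45, 15, 41 and 34 counts at 20 weeks, against 36, 24, 18 and 31 counts at 8 weeks. The count of 0 in OE_8wk replicate 2 allows a level of up to 0.0876 CPM (3 counts), a limit that covers counting error only. In OE mice Fgf21 averaged 0.899 ± 0.337 CPM at 20 weeks and 0.22 ± 0.223 CPM at 8 weeks, a fold change of 4.01 that did not pass (95% interval 0.43 to 3.58 on the log2 scale, adjusted p = 0.0628). Its ranges overlapped, with an exact permutation p of 0.0571. In Ctrl mice it averaged 0.917 ± 0.376 CPM at 20 weeks and 0.576 ± 0.258 CPM at 8 weeks, a log2 fold change of 0.68 ± 0.70 (adjusted p = 0.457). DESeq2 called Fgf21 higher in OE mice (2.01, adjusted p = 0.0129), as did limma voom (2.46, adjusted p = 0.0232). EdgeR called it without the libraries numbered 1 at 8 weeks (2.84, adjusted p = 0.0171) and without all 5 libraries that stand apart (2.23, adjusted p = 0.0237). In 22 of 27 alternative settings Fgf21 was not called in OE mice, among them the fit with 2 surrogate variables (adjusted p = 0.0752). OE_8wk replicate 2, with the count of 0, is one of the libraries with epididymal transcripts. Without those libraries the log2 fold change in OE mice was 1.60 (adjusted p = 0.0536).

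**Figure D2:**
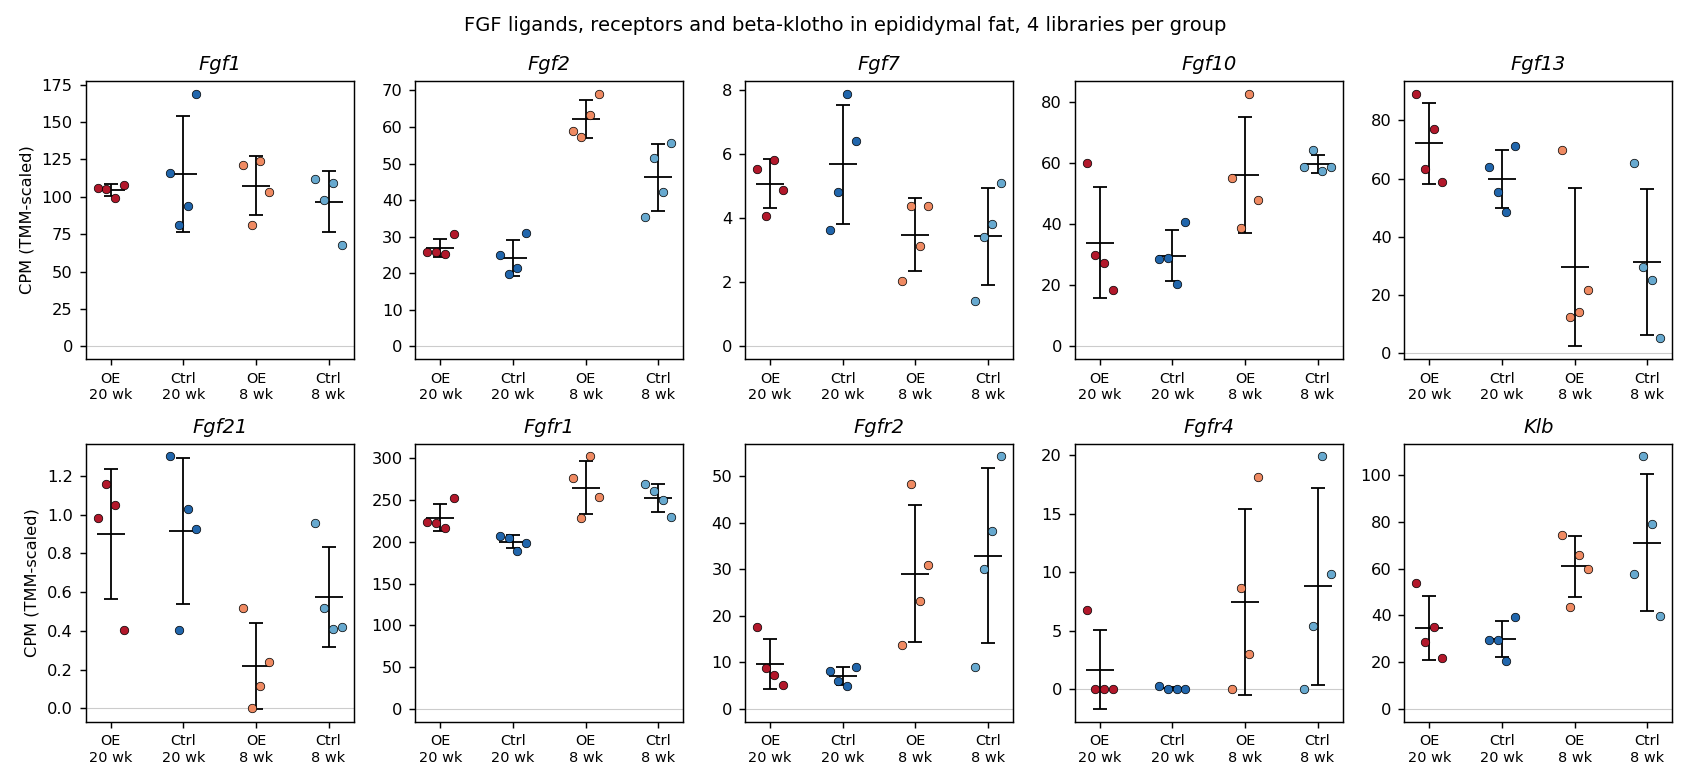
CPM scaled with TMM factors for each gene, with 1 point per library and bars for the mean and SD of 4 libraries. Fgf2 is lower at 20 weeks with no overlap in either genotype, and Fgf13 shows 1 high library in each 8-week group. OE_20wk replicate 1 is the highest 20-week library for Fgf10, Fgf13, Fgfr2, Fgfr4 and Klb.

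Fgfr1 (ID 14182, chromosome 8, 25518759 to 25575718) encodes the receptor through which FGF21 acts on adipocytes. It was 207, 205, 189 and 199 CPM in Ctrl mice at 20 weeks, against 269, 261, 250 and 230 CPM in Ctrl mice at 8 weeks. The ranges did not overlap, and the log2 fold change was -0.34 ± 0.09, 1.26-fold lower (adjusted p = 0.00971, exact permutation p = 0.0286). In OE mice Fgfr1 was 224, 222, 216 and 252 CPM at 20 weeks, against 276, 228, 302 and 253 CPM at 8 weeks. These ranges overlapped, and the log2 fold change of -0.21 ± 0.09 did not pass (adjusted p = 0.0974). Tested against a 1.2-fold change in place of no change, the difference in Ctrl mice did not pass (adjusted p = 0.188), nor did it with 2 surrogate variables (-0.34, adjusted p = 0.063). In OE mice Fgfr1 was called lower by DESeq2 (-0.22, adjusted p = 0.0251) and by limma voom (-0.26, adjusted p = 0.0159). EdgeR called it there without the libraries with epididymal transcripts (-0.28, adjusted p = 0.0175) and without all 5 libraries that stand apart (-0.27, adjusted p = 0.0498). Fgfr1 shares 164 of its 9875 exon bases with Gm16159 on the opposite strand.

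Fgfr2 (ID 14183, chromosome 7, 130162451 to 130266808) encodes the receptor of FGF7 and FGF10. It was 17.5, 8.89, 7.31 and 5.25 CPM in OE mice at 20 weeks, against 13.8, 48.3, 23.2 and 30.9 CPM in OE mice at 8 weeks. Ctrl mice had 8.2, 5.96, 5.03 and 9.1 CPM at 20 weeks, against 9.03, 30.1, 38.3 and 54.2 CPM at 8 weeks. In each genotype the libraries numbered 1 at 8 weeks were the lowest at that age and the ranges overlapped. The log2 fold change was -1.58 ± 0.50 in OE mice, 2.99-fold lower (adjusted p = 0.0359), and -2.22 ± 0.51 in Ctrl mice, 4.66-fold lower (adjusted p = 0.00424). The exact permutation p was 0.0571 in each genotype. The highest 8-week library in each genotype was one of those with epididymal transcripts, where the sum of 8 smooth muscle markers was 4133 CPM in OE_8wk replicate 2 and 4232 CPM in Ctrl_8wk replicate 4, against 677 to 913 CPM in the other 8-week libraries. Without them the call in OE mice was lost (log2 fold change -1.22, adjusted p = 0.0772), and that in Ctrl mice held (-1.87, adjusted p = 0.00927). Both calls held without the libraries numbered 1 at 8 weeks, at -1.81 in OE mice (adjusted p = 0.00622) and -2.53 in Ctrl mice (5.47e-04). Without all 5 libraries that stand apart both held too, at -1.92 in OE mice (adjusted p = 0.00103) and -2.27 in Ctrl mice (2.15e-04). The call in OE mice was also lost when any 1 of 6 of the 8 OE libraries was left out, with adjusted p-values of up to 0.109. With 2 surrogate variables neither call held (-0.66, adjusted p = 0.139 in OE mice and -0.85, adjusted p = 0.168 in Ctrl mice). Fgfr2 shares 314 of its 10328 exon bases with Ctbp2 on the same strand.

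Fgfr4 (ID 14186, chromosome 13, 55152818 to 55168759), known as the receptor that pairs with beta-klotho in liver, was detected in some libraries only. It had 275, 0, 0 and 0 counts in OE mice at 20 weeks, against 0, 322, 103 and 831 counts in OE mice at 8 weeks. In Ctrl mice it had 10, 0, 0 and 0 counts at 20 weeks, against 0, 252, 879 and 727 counts at 8 weeks. Of the 8 libraries with at least 10 counts, 6 were from 8 weeks, and the libraries numbered 1 at 8 weeks were both at 0. In the 6 libraries at 20 weeks with 0 counts, the level could be up to 0.0674 to 0.084 CPM. The difference between the ages was called in Ctrl mice (adjusted p = 0.0406) and not in OE mice (adjusted p = 0.428). Since Fgfr4 passed the filter on low counts mostly through libraries at 8 weeks, its difference is a description of these libraries; the call in Ctrl mice was lost in 12 alternative settings and its sign turned in 1. Without the libraries with epididymal transcripts the adjusted p in Ctrl mice was 0.0605. Without OE_20wk replicate 1, which leaves only OE libraries with 0 counts at 20 weeks, Fgfr4 was called lower in OE mice (-11.31, adjusted p = 0.0287). Without all 5 libraries that stand apart it was called lower in OE mice (-11.75, adjusted p = 0.0039) and in Ctrl mice (-7.47, adjusted p = 0.00254).

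Klb (ID 83379, chromosome 5, 65348411 to 65386957) encodes beta-klotho, the co-receptor without which FGF21 does not signal. It was 29.7, 29.7, 20.4 and 39.3 CPM in Ctrl mice at 20 weeks, against 57.9, 108, 79.1 and 39.7 CPM in Ctrl mice at 8 weeks. The ranges did not overlap, although the highest value at 20 weeks and the lowest at 8 weeks, 39.3 and 39.7 CPM, were close. Klb fell in Ctrl mice, with a log2 fold change of -1.25 ± 0.32, 2.39-fold lower (adjusted p = 0.00732, exact permutation p = 0.0286). With 2 surrogate variables in the fit it was -0.22 (adjusted p = 0.603). In OE mice Klb was 53.7, 28.6, 35.1 and 22 CPM at 20 weeks, against 74.3, 43.7, 66 and 59.9 CPM at 8 weeks. OE_20wk replicate 1 lay within the 8-week range, and the log2 fold change of -0.81 ± 0.32 did not pass (95% interval -1.48 to -0.13, adjusted p = 0.0783). Without that library it was -1.08 (adjusted p = 0.0192), and without the libraries with epididymal transcripts it was -0.94 (adjusted p = 0.031). Without all 5 libraries that stand apart it was -1.14 (adjusted p = 0.00811). On all libraries Klb was called lower in OE mice by DESeq2 (-0.82, adjusted p = 0.0344) and by limma voom (-0.98, adjusted p = 0.0058). With 2 surrogate variables in the edgeR fit it was not called in OE mice (-0.36, adjusted p = 0.212).

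In OE_20wk replicate 1, the library apart from its age group, Fgf10, Fgf13, Fgfr2, Fgfr4 and Klb were the highest of all 20-week libraries. Of these, Fgf13 alone, at 89.1 CPM there, had a higher mean at 20 than at 8 weeks in OE mice. Macrophage markers, 12 in all, summed to 3377 CPM there, against 5333 to 9231 CPM in the other 20-week libraries. Its mature adipocyte markers summed to 40315 CPM, against 22495 to 33981 CPM in the other 20-week libraries. Without this library edgeR called 5 members lower in OE mice (Fgf2, Fgf10, Fgfr2, Fgfr4 and Klb), beside 2679 of 19688 genes tested. The fit reported called 1902 of 19189 genes lower there. Without all 5 libraries that stand apart edgeR called 6 members lower and 2 higher in OE mice, beside 3671 and 3707 of 19646 genes. In Ctrl mice the count without all 5 was 6 lower and 1 higher, beside 4713 and 4357 genes. With 2 surrogate variables in the fit, edgeR called 1 member lower (Fgf2) and 2 higher (Fgf7 and Fgf13) in each genotype. Beside these stood 1078 genes lower and 1617 higher in OE mice, and 675 lower and 1083 higher in Ctrl mice, of 19189.

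**Figure D3:**
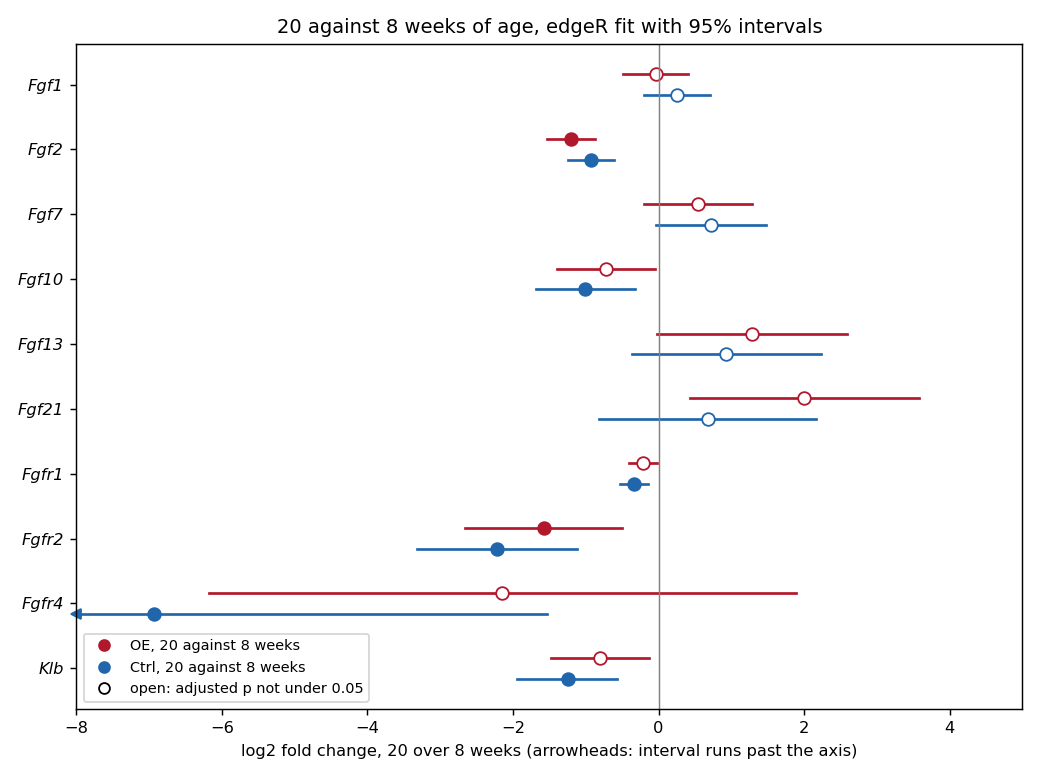
Log2 fold change of 20 over 8 weeks for each gene in OE and Ctrl mice, with 95% intervals and filled points for adjusted p under 0.05. Fgf2 is lower in both genotypes with narrow intervals. The interval of Fgfr4 is the widest in each genotype, followed by those of Fgf21, Fgf13 and Fgfr2.

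Markers of several cell types differed between the ages as well. Of 14 mature adipocyte markers, 7 were called lower in OE mice and 8 in Ctrl mice. Adiponectin (Adipoq) averaged 1350 CPM at 20 weeks and 2739 CPM at 8 weeks in OE mice, a log2 fold change of -1.02 ± 0.31, and 968 CPM at 20 weeks and 2461 CPM at 8 weeks in Ctrl mice, -1.35 ± 0.32. Of 12 macrophage markers, 10 were called higher in each genotype, with summed levels of 3377 to 8918 CPM in OE mice and 5333 to 9231 CPM in Ctrl mice at 20 weeks, and 1240 to 2107 CPM in OE mice and 1021 to 1640 CPM in Ctrl mice at 8 weeks. The other markers of the list were not called higher, and Lyve1, which marks resident macrophages, was called lower in OE mice (-1.19 ± 0.32, adjusted p = 0.0171) and in Ctrl mice (-1.52 ± 0.33, adjusted p = 0.00258), as was Cd163 in OE mice (-0.97 ± 0.19, adjusted p = 0.00262). Smooth muscle markers were called lower for 6 of 8 in each genotype, and endothelial markers for 1 of 8 in OE mice and 7 of 8 in Ctrl mice. Of 13 stromal progenitor markers, 2 were called higher and 1 lower in OE mice, and 5 higher in Ctrl mice. Of 10 mesothelial markers, 8 were called lower in OE mice and 3 in Ctrl mice. All these counts stand beside 13.1% of all genes called higher and 9.91% called lower in OE mice. In Ctrl mice the shares were 19.6% higher and 21.3% lower. Nothing particular to the cell type is read from the endothelial and stromal counts in OE mice or the mesothelial count in Ctrl mice. The part of these cell types in the lower FGF values was not tested. In these bulk samples, fewer cells of a type and less RNA per cell cannot be told apart.

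The second comparison asked whether the genotype changed the 10 genes at either age. No member was called. At 20 weeks edgeR called 0 of 10, beside 0.0261% of all genes tested, and 0 of 10 had an unadjusted p under 0.05, beside 3.97%. At 8 weeks it called 0 of 10, beside 0.0208%, and 1 of 10 had an unadjusted p under 0.05, beside 2.21%. Averaged over both ages it called 0 of 10, beside 0.0365%, and 1 of 10 had an unadjusted p under 0.05, beside 2.03%. DESeq2 called 0 of 10 in each, beside 0.313% of all genes at 20 weeks, 0.0782% at 8 weeks and 0.172% averaged. Limma voom called 0 of 10 in each, beside 0.104% at 20 weeks, 0.0625% at 8 weeks and 0.0521% averaged.

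Fgf2 was 58.9, 57.3, 63.4 and 69.1 CPM in OE mice at 8 weeks, against 35.3, 51.6, 42.2 and 55.7 CPM in Ctrl mice of the same age. All 4 OE libraries lay above all 4 Ctrl libraries, which was so for 0.787% of all genes tested. The log2 fold change was 0.43 ± 0.15 (95% interval 0.11 to 0.75), 1.35-fold, with an unadjusted p of 0.0124 and an adjusted p of 1 in edgeR. Over the 27 alternatives the value ran from 0.32 to 0.57 and the adjusted p from 0.689 to 1. At 20 weeks the ranges of Fgf2 overlapped, with a log2 fold change of 0.15 ± 0.15.

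Fgfr1 was 224, 222, 216 and 252 CPM in OE mice at 20 weeks, against 207, 205, 189 and 199 CPM in Ctrl mice. All 4 OE libraries lay above the Ctrl libraries, which was so for 1.24% of all genes. The log2 fold change was 0.19 ± 0.09 (95% interval -0.00 to 0.38), with an unadjusted p of 0.0511 and an adjusted p of 0.996 in edgeR. Over the 27 alternatives that adjusted p ran from 0.306 to 1. At 8 weeks Fgfr1 overlapped between the genotypes, with a log2 fold change of 0.07 ± 0.09.

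Klb differed between OE and Ctrl mice by a log2 fold change of 0.23 ± 0.31 at 20 weeks (95% interval -0.45 to 0.90) and of -0.22 ± 0.31 at 8 weeks (-0.89 to 0.45), with overlapping libraries. Fgf21 differed by -0.03 ± 0.69 at 20 weeks (95% interval -1.51 to 1.45) and by -1.36 ± 0.73 at 8 weeks (-2.92 to 0.20). A 2-fold lower level of Fgf21 in OE mice lies within both intervals. Fgfr2 differed by 0.46 ± 0.50 at 20 weeks and -0.18 ± 0.49 at 8 weeks. Fgf10 differed by 0.19 ± 0.31 at 20 weeks and -0.09 ± 0.31 at 8 weeks, and Fgf13 by 0.27 ± 0.60 and -0.08 ± 0.60. For Fgf1 the log2 fold change was -0.14 ± 0.21 at 20 weeks and 0.16 ± 0.21 at 8 weeks, and for Fgf7 it was -0.16 ± 0.35 and 0.02 ± 0.35. Fgfr4 had the largest estimate, 4.55 ± 2.40 at 20 weeks (95% interval -0.58 to 9.67), and differed by -0.24 ± 1.79 at 8 weeks. Its value at 20 weeks rests on OE_20wk replicate 1, with 275 counts, since the other OE libraries of that age had 0 counts. When single libraries were left out it ran from -4.60 to 9.16.

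**Figure D4:**
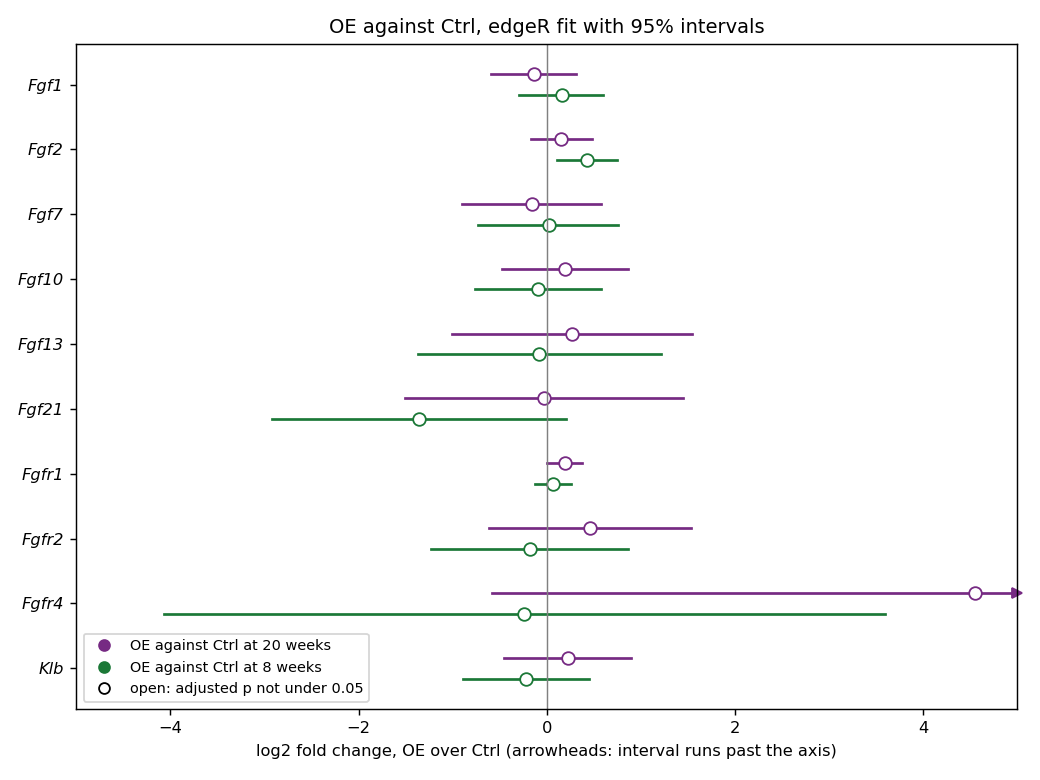
Log2 fold change of OE over Ctrl mice for each gene at 20 and 8 weeks, with 95% intervals from the edgeR fit. All points are open (adjusted p not under 0.05), and the interval of Fgf2 at 8 weeks, 0.11 to 0.75, lies above 0.

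Whether the change between the ages differed by genotype was tested with an interaction term, which edgeR called for 0 of 10 members, beside 0% of all genes tested. At an unadjusted p under 0.05 there were 0 of 10, beside 3.39% of all genes. DESeq2 and limma voom called 0 of 10 as well, beside 0.156% of all genes with DESeq2 and 0% with limma voom. The smallest unadjusted p among the 10 in edgeR was 0.131, that of Fgfr4, with an interaction term of 4.78 ± 2.99 (95% interval -1.62 to 11.19). The difference of the age effects, OE minus Ctrl, was -0.28 ± 0.21 for Fgf2, 0.64 ± 0.70 for Fgfr2, 0.28 ± 0.44 for Fgf10, 0.12 ± 0.13 for Fgfr1 and 0.45 ± 0.44 for Klb (95% interval -0.50 to 1.40). The calls in Ctrl mice alone are therefore not shown to be particular to that genotype.

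The rest of the FGF pathway was read in 5 lists of other genes. Their counts stand beside 13.1% of all genes called higher and 9.91% called lower in OE mice, and 19.6% higher and 21.3% lower in Ctrl mice, and nothing particular to a list is read from them. Of 16 other FGF ligands 5 were tested, and 1, Fgf11, was called lower in both genotypes. Fgf11, another FGF homologous factor, averaged 10.5 CPM at 20 weeks and 23.4 CPM at 8 weeks in OE mice, a log2 fold change of -1.16 ± 0.18 (adjusted p = 8.87e-04). In Ctrl mice it averaged 9.72 CPM at 20 weeks and 25.9 CPM at 8 weeks, -1.41 ± 0.18 (adjusted p = 1.04e-04). Fgf9, Fgf12, Fgf16 and Fgf18 did not pass in either genotype.

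Of 4 other receptors and klotho proteins, 1 was called higher and 1 lower in OE mice, and 1 higher and 3 lower in Ctrl mice, a list too short to set against the shares over all genes. Fgfrl1, a receptor without a kinase domain, fell in both, to 165 CPM at 20 weeks against 286 CPM at 8 weeks in OE mice (-0.79 ± 0.22, adjusted p = 0.0171) and to 137 CPM against 289 CPM in Ctrl mice (-1.08 ± 0.22, adjusted p = 0.00178). Lctl, a klotho-related protein, rose in both, to 232 CPM at 20 weeks against 40.2 CPM at 8 weeks in OE mice (2.53 ± 0.68, adjusted p = 0.0158) and to 194 CPM against 43.9 CPM in Ctrl mice (2.15 ± 0.67, adjusted p = 0.021). Fgfr3 fell in Ctrl mice to 3.44 CPM at 20 weeks, against 12.7 CPM at 8 weeks (-1.89 ± 0.39, adjusted p = 0.00198). Kl, the klotho co-receptor of FGF23, had 0, 0, 0 and 3 counts in Ctrl mice at 20 weeks, against 4, 115, 422 and 564 counts at 8 weeks. It passed the filter on low counts mostly through libraries at 8 weeks, so its call in Ctrl mice (adjusted p = 0.0219) describes these libraries only. In OE mice Fgfr3 and Kl did not pass (adjusted p = 0.0728 and 0.207).

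Of 19 tested genes for FGF carriers and heparan sulfate, 3 were called higher and 3 lower in OE mice, and 5 higher and 3 lower in Ctrl mice, beside 13.1% higher and 9.91% lower of all genes in OE mice and 19.6% and 21.3% in Ctrl mice. Hs6st1, which adds sulfate to heparan sulfate, rose by 1.15 ± 0.14 in OE mice (adjusted p = 2.80e-04) and by 1.32 ± 0.14 in Ctrl mice (adjusted p = 4.17e-05). Sdc3, a syndecan, rose by 1.25 ± 0.22 in OE mice (adjusted p = 0.00155) and by 1.62 ± 0.22 in Ctrl mice (adjusted p = 1.39e-04). Gpc4, a glypican, differed by -0.90 ± 0.24 in OE mice (adjusted p = 0.0141) and by -1.44 ± 0.24 in Ctrl mice (adjusted p = 4.74e-04). The list's median log2 fold change was -0.02 in OE mice and -0.05 in Ctrl mice, beside -0.03 and -0.05 for all genes.

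Of 18 adaptors and MAP kinase cascade genes, 4 were called higher and 2 lower in OE mice, and 4 higher and 4 lower in Ctrl mice, beside the same shares over all genes. Grb2, the adaptor that links receptors to Ras, rose by 0.79 ± 0.13 in OE mice (adjusted p = 0.00116) and by 0.88 ± 0.13 in Ctrl mice (adjusted p = 2.37e-04). Mapk3, a MAP kinase, rose by 0.41 ± 0.09 in OE mice (adjusted p = 0.00486) and by 0.51 ± 0.09 in Ctrl mice (adjusted p = 5.63e-04). Plcg1, a phospholipase that binds FGF receptors, differed by -0.37 ± 0.10 in OE mice (adjusted p = 0.0177) and by -0.40 ± 0.10 in Ctrl mice (adjusted p = 0.00732). These genes serve many receptors besides those of FGFs.

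Of 15 feedback and target genes of FGF signalling, 2 were called higher and 0 lower in OE mice, and 4 higher and 2 lower in Ctrl mice, beside the same 13.1% and 9.91% of all genes in OE mice and 19.6% and 21.3% in Ctrl mice. Spred1, an inhibitor of Ras signalling, rose by 1.07 ± 0.18 in OE mice (adjusted p = 0.00132) and by 1.21 ± 0.18 in Ctrl mice (adjusted p = 2.54e-04). Etv5, an ETS transcription factor, rose by 0.69 ± 0.18 in OE mice (adjusted p = 0.0143) and by 0.95 ± 0.18 in Ctrl mice (adjusted p = 0.00117). Spred2 differed by -0.35 ± 0.06 in Ctrl mice (adjusted p = 8.72e-04). Between OE and Ctrl mice, edgeR called 0 genes of the 5 lists at 20 weeks and 0 at 8 weeks.

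**Figure D5:**
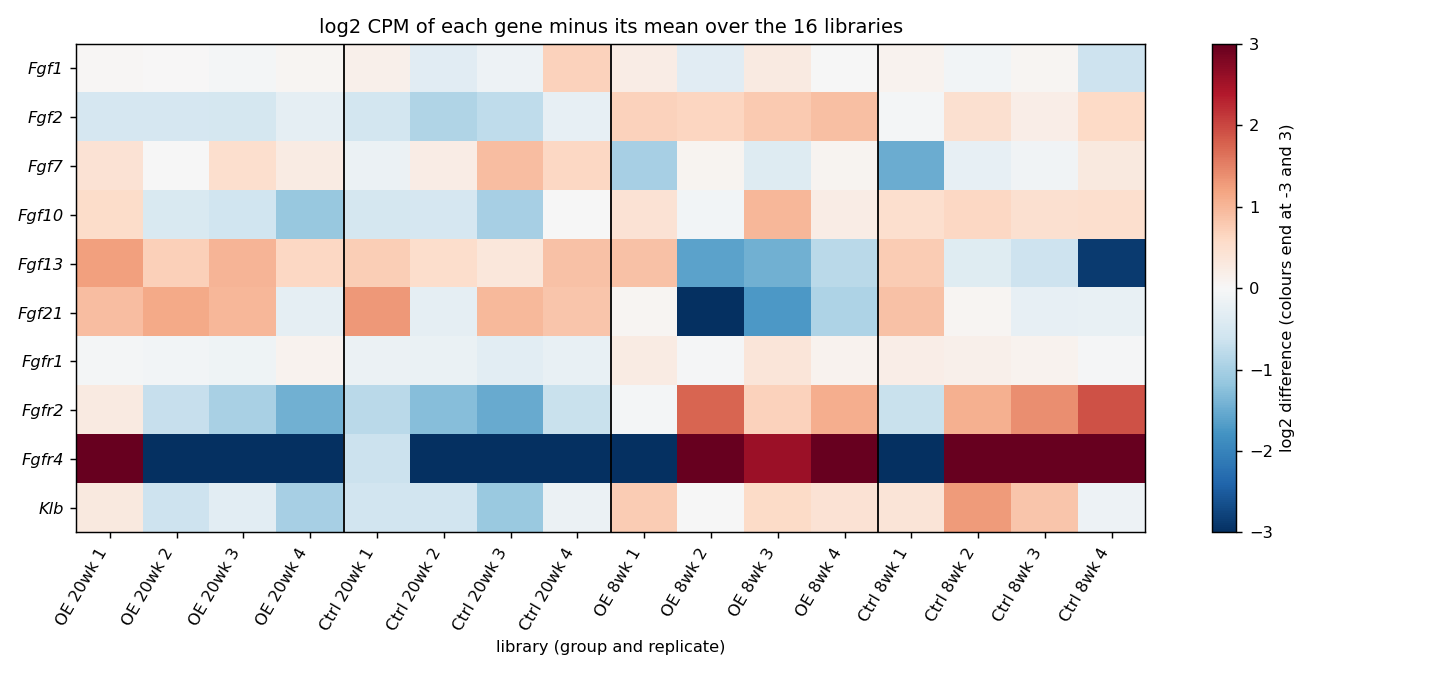
Log2 CPM of each gene minus its mean over the 16 libraries, with libraries in columns by group and colours that end at -3 and 3. Fgf2 is below its mean in all 8 libraries at 20 weeks, and Fgfr4 splits the libraries within groups.

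The genes most alike in pattern were taken over the 16 libraries, which share 2 ages, as a description. Among 12325 genes searched by log2 CPM, Klb was closest to Rtn4rl1 (Pearson r = 0.98) and Cluh (0.97), and Fgfr2 to Hspa2 and Nt5e (0.97 each). Fgf10 was closest to Mccc1 and Negr1 (0.96 each), Fgf2 to Kif13a (0.96) and Ackr4 (0.95), and Fgfr1 to Sec23ip (0.94) and Pttg1ip (0.93). Fgf13 was closest to Duoxa1 and Hdac9 (0.97 each) and Fgfr4 to Acsbg1 and Slc30a2 (0.97 each). The closest genes were less alike for Fgf7 (Zfp704, 0.92), Fgf21 (Lipf, 0.84) and Fgf1 (Ankib1, 0.83). With group means taken out, Klb was closest to Cdkn2c (0.97), Fgfr2 to Gnao1 (0.97), Fgfr4 to Dnah6 (0.97), Fgf13 to Tph2 and Vac14 (0.97 each), Fgf10 to Ivd and Sik2 (0.96 each), Fgf7 to Spata24 (0.95), Fgf1 to Fam136a and Nupr1 (0.93 each), Fgfr1 to Vti1b (0.92), Fgf21 to Psme2 (0.89) and Fgf2 to Jmy (0.85). Among the 10 genes themselves, Fgfr2 and Fgfr4 varied together within groups (r = 0.87), as did Fgf10 and Klb (0.72). So did Fgf7 and Fgfr2 (0.69), while Fgf7 and Fgf13 ran opposite (-0.72). All these correlations include the libraries that stand apart, and none was computed without them. In both libraries numbered 1 at 8 weeks Fgfr4 had 0 counts and Fgfr2 was the lowest of its group.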

How the data were processed

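Total RNA of the fat pad was extracted with RNeasy, and mRNA libraries were prepared with a TruSeq stranded kit, per the labels' protocols. The authors used bcl2fastq 2.20.0, Trimmomatic, HISAT2 2.1.0 and StringTie 2.1.3b on mm10, per the submitters' processing notes. Neither the strand used in counting nor the annotation release is given in the sources used here. The tests used the deposited read counts, which are whole numbers without normalisation by the authors. Since StringTie works from coverage, these deposited counts may be rounded estimates. The deposited TPM values were used to compare levels between genes. The deposited FPKM values served as an alternative for that order.

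The analysis in edgeR 4.0.16 (R 4.3.3) used filterByExpr at a minimum count of 10 (19189 genes kept), TMM scaling, and 1 robust quasi-likelihood fit of the 4 groups with 12 residual degrees of freedom. Benjamini-Hochberg adjustment covered the 19189 genes, and called means an adjusted p under 0.05. Adjusted p-values are from this fit unless another tool is named. Standard errors of log2 fold changes were taken from the size of the change and its F statistic, with 95% intervals. CPM are counts scaled with TMM factors, given per library or as mean ± SD. Log2 CPM used a prior count of 2. Depth was 33626901 to 67576994 counts per library. The script was tested on simulated data.

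All 10 members are named, with Lta4h as the check of the labels, and the genes closest in pattern. Called pathway genes that are named were among the 4 with the smallest adjusted p of their list in OE or Ctrl mice. Not every such gene is named, and Nras is one left out. The members, lists and tests were chosen with earlier results of these data known. Gene positions and promoters are from RefSeq (GRCm38.p6), and exon overlaps are from GENCODE. Alternatives were DESeq2 1.42.0, limma 3.58.1 voom, 2 surrogate variables from sva 3.50.0, other scaling and filters, only the groups compared, a replicate block, a 1.2-fold test and leaving out libraries. Plots were made in matplotlib 3.10.9 (Python 3.11.15).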

Additional observations from a re-analysis of the deposited data

Results flagged for a closer look

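Among 40 groups of 4 libraries tested for a library far from the others, 4 were flagged, and chance flags about 1 in 20. Fgf2 in OE mice at 20 weeks was 30.6 CPM in replicate 4, against 25.3 to 25.9 CPM in the other libraries, and this value was still below every 8-week library. Fgf13 in OE mice at 8 weeks was 69.8 CPM in replicate 1, against 12.5 to 21.8 CPM in the others. Fgfr4 in OE mice at 20 weeks was 6.75 CPM in replicate 1, and in Ctrl mice at 20 weeks 0.29 CPM in replicate 1, with 0 counts in the other 3 libraries of each group. With 3 libraries at 0, any value above 0 in the remaining one is flagged, so the rate of 1 in 20 does not hold for Fgfr4.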

How the results depend on the processing

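Over 27 alternatives, Fgf2 kept its call in both genotypes, with log2 fold changes of -1.28 to -1.08 in OE mice and -1.07 to -0.77 in Ctrl mice. Comparisons of OE with Ctrl mice and the interaction gave 0 called members under every alternative. Between the ages in Ctrl mice, members called higher were 0 in the fit reported, against 2 with limma voom, 2 with 2 surrogate variables, 1 without the libraries numbered 1 at 8 weeks and 1 without all 5 libraries that stand apart, and 0 to 1 when single libraries were left out. Members called lower were 6, against 1 with 2 surrogate variables and 4 to 6 when single libraries were left out. In OE mice, members called higher were 0, against 1 with DESeq2, 2 each with limma voom, 2 surrogate variables, without the libraries numbered 1 and without all 5, and 0 to 2 with single libraries left out. Members called lower were 2 in OE mice, against 4 with DESeq2, 5 with limma voom, 6 without all 5 libraries, 1 each with no filter, 2 surrogate variables and the 1.2-fold test, and 1 to 5 with single libraries left out. The counts over all genes moved too. In OE mice 1902 genes were called lower in the fit reported, against 2780 with DESeq2, 3688 with limma voom and 3671 without all 5 libraries.

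With 2 surrogate variables Fgfr4 in Ctrl mice turned to 1.55 (adjusted p = 0.703), Klb in Ctrl mice was -0.22 (0.603), Fgf10 -0.26 (0.707) and Fgfr2 -0.85 (0.168). That fit called 675 genes lower in Ctrl mice, against 4083 in the fit reported. The cause was not tested. In OE mice Fgfr2 lost its call in 11 alternatives. The order of levels changed for 2 members in OE mice at 20 weeks and 2 at 8 weeks when group medians replaced means, and for 0 with FPKM. Correlations of the deviations of same-numbered OE and Ctrl libraries were 0.826 for number 1 and 0.278 for number 4 at 8 weeks, -0.198 to -0.0334 for the other two at that age, and -0.239 to 0.0292 at 20 weeks. Since not every pair was over 0.1, the numbers were not taken to pair the libraries. A fit with the replicate block called 1 member lower in OE mice (Fgf2), against 2 without it (Fgf2 and Fgfr2). Depth limits Fgf21 and Fgfr4, with counts down to 0.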
